A study of Mus musculus with 249 samples.

Results

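The full collection is the set of 54 multiplex genome architecture mapping (GAM) libraries that the sample titles name as such, out of 249 libraries that passed quality control in this series. Its members were found by their titles and by their columns in the deposited table of positive windows, and the rule itself uses no measured value. GAM reads chromatin contacts from thin slices of nuclei. Each slice cuts through a random part of the nucleus, and the DNA in it is amplified and sequenced. The more often a pair of genomic windows is cut by the same slice, beyond what their separate detection gives, the closer they are taken to lie. In the multiplex form several slices go into one tube before amplification, so that one library samples several nuclei at once.

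The cells were 46C mouse embryonic stem cells, a line of the 129/Ola strain with a GFP reporter knocked into Sox1, grown with LIF and serum and then for the last day in a serum-free medium. For each library of the collection 4 profiles were dissected into a cap from cryosections of 220 nm, stained with 1% cresyl violet, lysed for 4 h and amplified by 25 PCR cycles. The remaining libraries, in 19 groups, came from the same line and were also made from 4 dissected profiles each. A dissected profile can miss the nucleus, so the number of nuclear profiles in a library can be lower than that. They were made to test steps of the protocol, such as staining, freezing, reagent volumes, kit size, proteinase and PCR cycles, and they serve here only as a reference. The nearest reference in handling was the stained arm of the cresyl violet test, with 16 libraries, which by the labels was frozen overnight after lysis, whereas the caps of the collection were frozen before it. The names of the 54 libraries point to 1 plate with 12 columns, and nothing states that they came from separate cultures. The p-values below therefore measure only the spread between libraries of one line, which may be technical.

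Chromosomes occupy territories in the interphase nucleus, so that a slice tends to hit a chromosome over a long stretch or to miss it. Within a territory, linkage between windows falls with distance, and local linkage is organised into topologically associating domains whose borders often carry CTCF, a zinc-finger protein that stops loop extrusion by cohesin, or active gene starts. At a larger scale gene-rich, GC-rich chromatin tends to lie with its own kind, as does gene-poor chromatin. The line is male, so each nucleus has 1 X chromosome and 1 Y chromosome before replication.

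The deposited table lists 68162 windows of 40 kb on 21 chromosomes of the mouse build mm9, each called positive or not in each library. Read counts behind the calls were not used here and the depth of the libraries is therefore unknown. No pair of the 54 libraries was identical. Of 61816 autosomal windows, 3.75% were positive in no library of the collection. These 2319 windows were mostly unsequenced reference, since 1880 of them had under 50% known bases, and 142 were positive in another library of the series. The median autosomal window was positive in 9 of 54 libraries, and 91.2% were positive in at least 5, the minimum used for the maps below.

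The collection sampled less of the genome per library than the rest of the series. Its libraries had 16.8% ± 7.20 (SD, n = 54) of the autosomal windows positive, with a lowest value of 3.97%, a median of 16.0% and a highest of 32.3%. The other libraries averaged 20.1%, and the difference of −3.26 percentage points passed the test (permutation test over libraries, two-sided, adjusted p = 0.0454 over 12 comparisons), with 18 of 54 collection libraries above the mean of the others. Against the 16 stained libraries, which averaged 22.2%, the difference was −5.39 points (permutation test, adjusted p = 0.0454). Both calls were lost without the libraries of under 5% coverage, 2 of the collection and 3 of the others: the differences were then −3.02 and −4.89 points (permutation test, adjusted p = 0.0566 and 0.0682). They were also lost with medians, which differed by −2.76 and −3.65 points (permutation test, adjusted p = 0.103 and 0.297).

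Whole autosomes were hardly sampled more often in the collection than in the other libraries when means were compared, a call that medians did not keep. An autosome was counted as hardly sampled in a library when under 5% of its windows were positive. This held for 19.2% of the 19 autosomes in the mean collection library and for 11.7% in the other libraries, a difference of 7.51 points (permutation test, adjusted p = 0.0104, 31 of 54 libraries above the mean of the others). The difference of medians was 10.5 points and did not pass (permutation test, adjusted p = 0.0526). Against the stained libraries the difference of 9.66 points did not pass (permutation test, adjusted p = 0.0635). The number of hardly sampled autosomes ranged from 0 to 14 per library with a median of 3. Its Pearson r with coverage was −0.77 over the 54 libraries, given as a description because both are taken from the same chromosome percentages. At the other end, the best sampled autosome of a library had 38.9% of its windows positive at the median, and no more than 53.4%.

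Positive windows came in runs. In the mean collection library 81.0% ± 12.9 (SD, n = 54) of the positive autosomal windows had a positive neighbour, and the longest run had a median length of 1.70 Mb and reached 4.28 Mb in one library. The share with a neighbour did not differ from the other libraries beyond their spread (−1.06 points, permutation test, adjusted p = 0.667). It was lower than in the stained libraries by 8.29 points (permutation test, adjusted p = 0.0454), a call lost without the libraries of under 5% coverage (−6.57 points, permutation test, adjusted p = 0.054) and with medians (−3.92 points, permutation test, adjusted p = 0.0879). In the collection 7 libraries stood apart with a share between 33.3% and 62.6%, whereas the remaining 47 started at 70.2%. They came from 7 different plate columns, and their counterparts numbered 17 among the other libraries and 0 of 16 among the stained ones. The share with a neighbour had a Pearson r of 0.47 with coverage over the 54 libraries, a description only, since positive windows placed at random would also have more positive neighbours at higher coverage. Neither coverage nor the share with a neighbour passed a permutation test over plate columns (F = 1.34 and 0.664, permutation p = 0.231 and 0.725, adjusted p = 0.461 and 0.725).

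**Figure D1:**
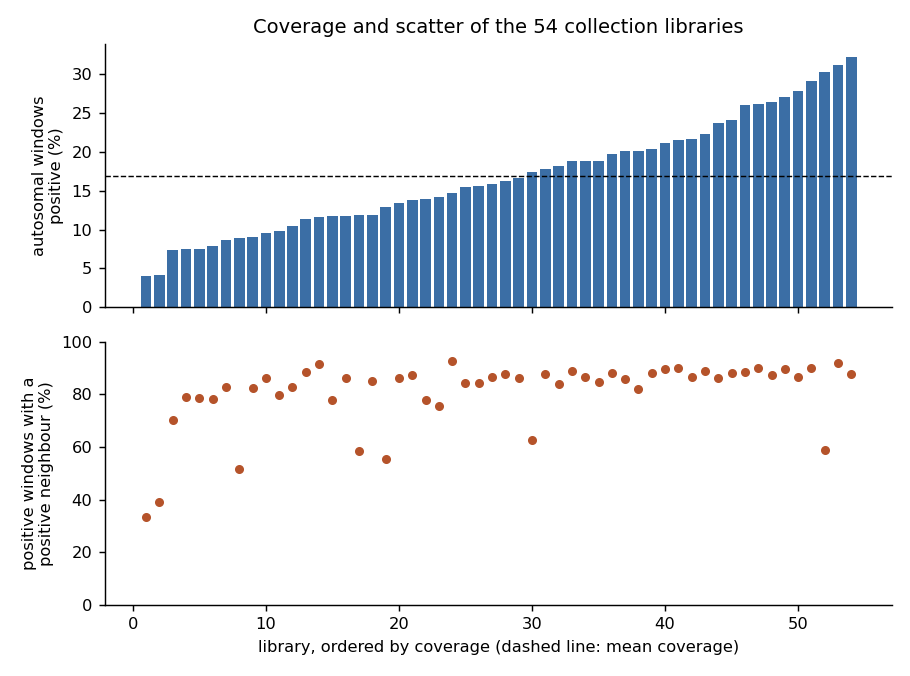
Autosomal windows called positive (%, bars) and positive windows with a positive neighbour (%, points) in each of the 54 libraries, ordered by coverage, with mean coverage as a dashed line. Coverage runs from 3.97% to 32.3%, and 7 libraries lie below 65% in the lower panel while the rest lie above 70%.

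Base composition moved with detection. Windows in the highest 10% of GC content (mean 49.9% GC) were positive in 19.7% of the collection, and those in the lowest 10% (mean 36.2% GC) in 14.9%. The difference was 4.83 ± 0.619 points (SE over libraries), with the GC-rich windows ahead in 44 of 54 libraries (two-sided sign-flip permutation test, p = 1e-05, the smallest the resamples can give). In the other libraries the same windows stood at 23.0% and 18.2%. The most often detected window was chr2:98480001-98520000, which was positive in all 54 libraries and in all others and holds the predicted genes Gm10800 and Gm10801. It was followed by chr6:103560001-103600000, overlapping Chl1, a gene for a neural cell adhesion molecule, and by chr9:3000001-3040000, each positive in 53 libraries. The latter lies next to the centromeric end of its chromosome. In this order their GC content was 36.9%, 35.95% and 35.5%, near the mean of the lowest 10% and not of the highest. The window on chromosome 2 was positive even in the library with 3.97% coverage. Whether slices or another source made these windows positive so often was not tested.

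Chromosome sampling was measured in each library as the percentage of positive windows on a chromosome minus that on the other autosomes together. Besides chromosome 5, which is described on its own because it was singled out for its value, 4 of 20 chromosomes passed the test (sign-flip permutation test over 54 libraries, two-sided, adjusted over all 21 chromosomes), which is 20% of those tested, and all 4 were low. The X chromosome differed from the autosomes by −8.37 ± 1.01 points (SE, n = 54, adjusted p = 0.000105, permutation test, above them in 6 libraries). The Y chromosome differed by −14.6 ± 0.877 points (adjusted p = 0.000105, permutation test, above in 0 of 54), and this call was lost over windows positive at least once in the collection (−2.86 points, permutation test, adjusted p = 0.389). Of the listed Y windows 84.9% were never positive. Chromosome 14 differed by −3.68 ± 1.12 points (adjusted p = 0.0142, permutation test, above in 18). Chromosome 7 differed by −3.70 ± 1.21 points (adjusted p = 0.0186, permutation test, above in 19), but over windows positive at least once the value was −2.71 and did not pass (permutation test, adjusted p = 0.251).

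The sampled share of the X varied more than its mean shows. X coverage over autosomal coverage averaged 0.447 ± 0.463 (SD, n = 54), with a lowest ratio of 0.0160, a median of 0.337 and a highest of 2.15. It did not differ from the 0.534 of the other libraries beyond the spread (permutation test, adjusted p = 0.291). In 25 libraries under 5% of X windows were positive, against 5 to 15 libraries for each autosome. Compared with the other libraries, 0 of 20 chromosomes besides 5 differed in their sampling (0%, permutation test over libraries), and 1 passed before adjustment at 0.05, the Y chromosome, by 2.72 points (permutation test, p = 0.0221, adjusted p = 0.232). Detection of Y windows itself was not higher, at 2.21% in the collection and 2.74% in the others, and the difference in points includes the lower autosomal coverage of the collection.

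**Figure D2:**
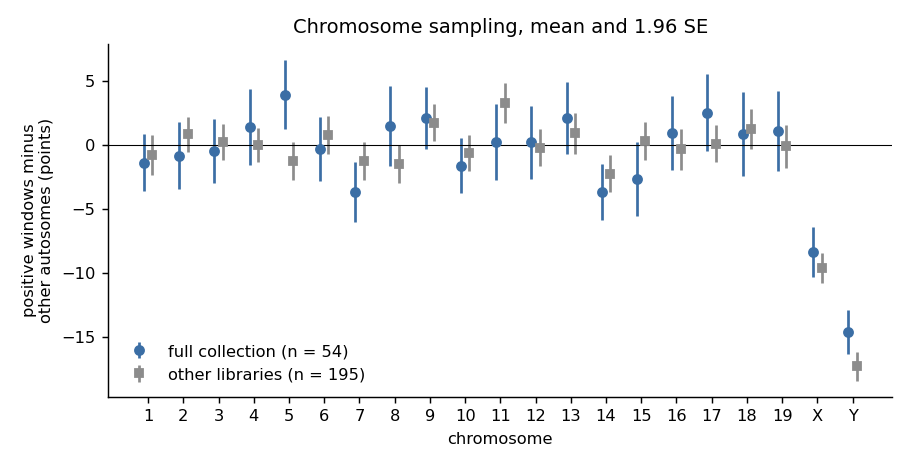
Percentage of positive windows on each chromosome minus the other autosomes (points), mean and 95% interval over the 54 libraries of the collection (circles) and the other libraries (squares). Chromosome 5 is the highest circle at 3.92, and X and Y lie lowest in both sets.

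Chromosome 5 had the highest mean of all autosomes in the collection. Its values are a description, given without a test, because the chromosome was picked for them. On chromosome 5, 20.5% of windows were positive, with a lowest library at 0.184%, a median of 18.8% and a highest of 44.2%. The excess over the other autosomes was 3.92 ± 1.39 points (SE, n = 54), chromosome 5 was ahead in 36 of 54 libraries and the excess ran from 3.52 to 4.36 when each library was left out in turn. The next autosome, chromosome 17, had 2.52 points. Chromosome 5 kept the first place among the autosomes over windows positive at least once (4.06 points), after weighting the other autosomes to its GC content (3.81 points) and on a log2 scale. On that log2 scale the mean of chromosome 5 was −0.03 and thus turned sign, while the median autosome stood at −0.28, 0.26 below it.

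In the other libraries chromosome 5 differed from the other autosomes by −1.24 points and ranked 16th of 19. The collection exceeded these libraries by 5.17 ± 1.58 points, and the stained libraries had 1.30 ± 3.17 (SE, n = 16). Detection of chromosome 5 itself was 20.5% in the collection, 18.9% in the others and 23.4% in the stained libraries, so the difference in points includes the lower coverage of the other autosomes in the collection. The collection was not the highest group of the series: the unstained arm of the cresyl violet test had 4.43 ± 3.85 points over 10 libraries. Within the collection the excess was uneven over the plate. It was 11.3 points in column 1 (6 libraries) and 8.79 in column 7 (5 libraries), lay between 0.397 and 7.82 in columns 2 to 6 and 8 to 11, and was −7.74 in the single library of column 12. Leaving out column 1 gave 3.00 points, the lowest value of any column left out. The part of plate position in the excess was not tested. Chromosome 5 was the most sampled autosome of 3 libraries and among the 3 most sampled of 13, the same count as chromosome 13, and it was the least sampled of 0 libraries. It was hardly sampled in 8. The high mean thus came with a wide spread rather than from a lead in every library. As a description with no test, the percentage on chromosome 5 had a Pearson r of 0.65 and a Spearman rho of 0.66 with that on the other autosomes over the 54 libraries, which share their coverage.

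**Figure D3:**
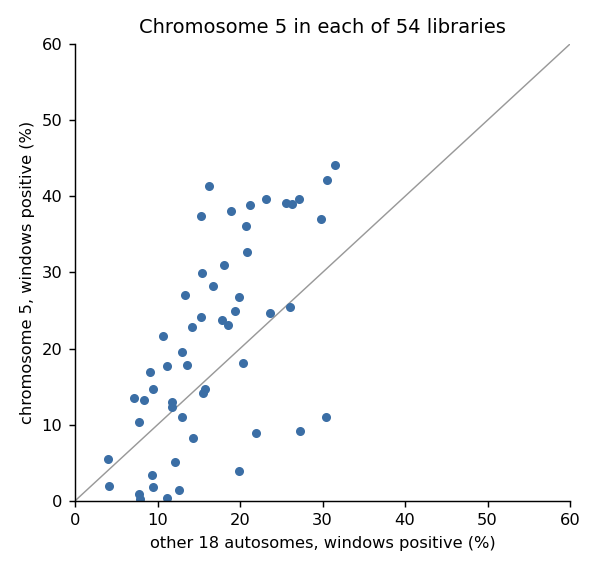
Positive windows on chromosome 5 (%) against the other 18 autosomes together (%) in each of the 54 libraries, with the line of equal sampling. Chromosome 5 lies above the line in 36 libraries and ranges from 0.184% to 44.2%.

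The excess spanned most of the chromosome and not a single locus. In segments of 10 Mb, the first 20 Mb lay below the other autosomes, with −2.24 points from 0 to 10 Mb, where 30.0% of the windows were never positive, and −1.40 points from 10 to 20 Mb. All 14 later segments lay above, from 0.595 points at 90 to 100 Mb to 7.77 at 140 to 150 Mb. The segment at 140 to 150 Mb was positive in 24.4% ± 2.90 of the collection (SE over libraries) and ranked first among 239 autosomal segments, whereas the other libraries had 21.3% there. It holds Actb, the beta-actin gene, Rac1, a small GTPase of the cytoskeleton, and Cdx2, a transcription factor of the trophectoderm. It also holds Flt1 and Flt3, which encode receptor tyrosine kinases. The start windows of these genes, described below, were not all above the other libraries.

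Genes of chromosome 5 are described here with their chromosome. Their start windows are among the windows for which the chromosome was picked, so their level follows from that choice. The start windows of 37 listed genes were positive in a median of 13 libraries, from 6 to 20, the median over all 968 windows of chromosome 5 with a protein-coding start also being 13. Autosomal windows with a protein-coding start had a median of 10, and all autosomal windows 9. In the other libraries the median was 21.5% for windows of chromosome 5 with a protein-coding start and 22.6% for such autosomal windows. Flt3 was highest, in 20 of 54 libraries, 37.0% against 21.03% of the others. Cdx2 and Pdx1, the latter a factor of the pancreas, start in the same window, which was positive in 19 libraries, 35.2% against 20.0%. Cdk6, a kinase of the G1 phase, was also positive in 19, but with 33.8% in the others. At the low end were Brca2, a gene of DNA repair, in 6 libraries (11.1% against 21.5%), Hgf, a growth factor gene, in 7, and Alb and Afp, the albumin and alpha-fetoprotein genes that share a window, in 7 (13.0% against 17.4%). Shh and Rac1 followed with 8 libraries each, Rac1 at 14.8% against 27.2%. Of the listed genes between 140 and 150 Mb, Actb (25.9% against 27.2%) and Pms2 (18.5% against 25.6%) were also below the others. Flt3, Cdx2, Pdx1, Flt1 (27.8% against 19.5%) and Hmgb1 (25.9% against 24.6%) were above them. All these windows lie on one chromosome and are caught together, so they are not independent of one another.

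Genes of the pluripotency network on several chromosomes were at a like level. Of 18 listed genes 17 were found in the annotation, and their start windows were positive in a median of 13 libraries, with a median of 23.6% in the others. Nanog, a core pluripotency factor, was highest with 20 of 54, Klf2 had 17, Sall4 and Fgf4 had 16 and Pou5f1, which encodes Oct4, had 15. Sox2 was positive in 11 and Dppa4 was lowest with 7. Their median is above that of all autosomal gene starts, and the difference was not tested.

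Linkage between windows was measured as D′, the normalised linkage disequilibrium, which is 1 when 2 windows are positive together as often as their detection allows and 0 when they are independent. Errors are delete-one jackknife standard errors over the 54 libraries. Adjacent windows had a mean D′ of 0.665 ± 0.018. The mean fell to 0.556 ± 0.016 at 80 to 200 kb, to 0.468 ± 0.014 at 240 to 480 kb and to 0.378 ± 0.013 at 0.52 to 1 Mb. It was 0.281 ± 0.013 from 1 to 2 Mb, 0.189 ± 0.014 from 2 to 4 Mb and 0.116 ± 0.016 from 4 to 10 Mb. Beyond that it was 0.080 ± 0.016 up to 25 Mb, 0.038 ± 0.017 up to 50 Mb and −0.022 ± 0.021 above 50 Mb, where the interval includes 0. Windows on different autosomes gave −0.103 ± 0.023. That last sign depends on the measure: with the phi coefficient, which is the plain correlation of 2 windows over the libraries, different autosomes gave 0.037 ± 0.0062. Without the 7 scattered libraries D′ was higher at short range, 0.707 for adjacent windows and 0.397 at 0.52 to 1 Mb.

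Whether the decay differed from the rest of the series depended on the measure. The other libraries had a D′ of 0.631 ± 0.0074 for adjacent windows and 0.210 ± 0.0054 at 2 to 4 Mb, over the same windows, and 0.013 ± 0.010 between autosomes. Mean D′ was higher in the collection up to 2 Mb, with 0.378 against 0.356 at 0.52 to 1 Mb. It was lower from 2 Mb on, with 0.189 against 0.210 at 2 to 4 Mb and −0.103 between autosomes. The differences below include that lower value between autosomes. Measured above the value between autosomes, D′ at 0.52 to 1 Mb was 0.481 in the collection and 0.343 in the others, a difference of 0.138 (95% interval 0.088 to 0.189), and the interval lay above 0 in 9 of the 10 distance classes, all but that above 50 Mb. Against the stained libraries the difference was −0.158 at 40 kb (95% interval −0.424 to 0.108), and the interval included 0 in all 10 classes. With phi the same quantities were 0.286 ± 0.012 and 0.278 ± 0.0057, a difference of 0.0080 (95% interval −0.018 to 0.034), and the interval of the difference included 0 in each of the 10 distance classes. The number of libraries differs between the maps, and the part it has in the D′ difference was not tested.

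**Figure D4:**
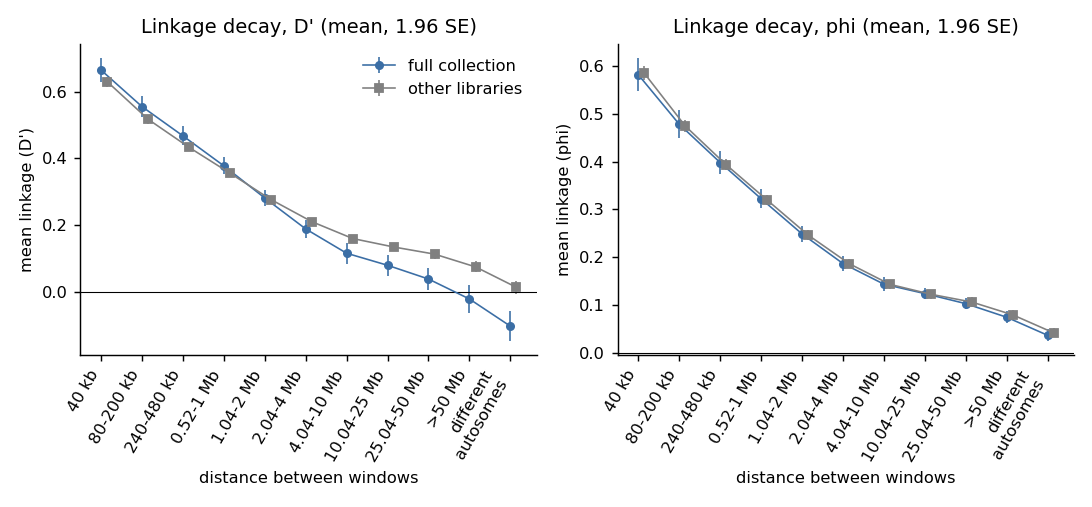
Mean linkage by distance as D′ (left) and phi (right) in the collection and in the other libraries, with 95% jackknife intervals, and between different autosomes at the right end of each panel. The D′ curves part at long range, where the collection reaches −0.103 between autosomes, while the phi curves overlap.

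Co-detection was also measured within each library. For each library the share of positive windows whose partner at a fixed distance was also positive was corrected for the coverage of the chromosome in that library, so that 0% stands for independence. The corrected share in the collection was 52.2% ± 13.7 (SD, n = 54) at 40 kb, 37.0% ± 10.8 at 200 kb, 19.5% ± 6.58 at 1 Mb, 5.79% ± 3.12 at 4 Mb and 2.44% ± 2.37 at 10 Mb. The other libraries had 52.3%, 36.5%, 19.6%, 6.12% and 2.23%, and no distance differed beyond the spread (permutation test, adjusted p from 0.864 to 0.937 over 10 comparisons). Against the stained libraries the difference was −9.75 ± 2.88 points at 40 kb (SE), −7.05 ± 2.22 at 200 kb and −3.93 ± 1.32 at 1 Mb, none of which passed after adjustment (permutation test, adjusted p = 0.0799, 0.0799 and 0.0881).

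Chromosome 5 had no difference in short-range linkage that its error could resolve. Its D′ minus that of the other autosomes was 0.0035 ± 0.0099 for adjacent windows and 0.0056 ± 0.016 at 0.52 to 1 Mb (95% interval −0.025 to 0.036). The intervals included 0 in all classes up to 50 Mb. Above 50 Mb the difference was 0.070 ± 0.029 (95% interval 0.012 to 0.127), at rank 3 of 19 autosomes. It was 0.044 over windows positive in at least 8 libraries. With phi it was 0.016 ± 0.015 (95% interval −0.013 to 0.046), which includes 0. In the other libraries the D′ difference above 50 Mb was 0.010 ± 0.015.

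Pairs of neighbouring genes on chromosome 5 ranged widely, with errors from 0.142 to 0.36 in the pairs described here. Flt1 and Flt3, 320 kb apart, were both positive in 13 libraries, Flt1 alone in 2 and Flt3 alone in 7. Their D′ was 0.788 ± 0.142, against a mean of 0.488 for chromosome 5 at that distance and 0.434 ± 0.095 in the other libraries. Pdgfra and Kit, receptor tyrosine kinase genes 440 kb apart, were both positive in only 5 libraries, with Pdgfra alone in 10 and Kit alone in 11. Their D′ was 0.053 ± 0.153, against a chromosome mean of 0.449 and 0.506 ± 0.085 in the others. A boundary of chromosome 5 at chr5:75640001-75680000, described with the other boundaries, lies between them. The score behind that boundary averages D′ over pairs within 400 kb across it, and this pair is one of them. The low D′ of the pair is thus part of that call and not a separate observation. Spp1 and Ibsp, bone matrix genes 120 kb apart, had 0.018 ± 0.36, an error too large to set this pair apart from the chromosome mean of 0.569, and 0.498 ± 0.100 in the others. Shh, a morphogen gene, and Lmbr1, whose intron holds its limb enhancer, had 0.325 ± 0.25, near the chromosome mean of 0.354.

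Long-range linkage was ordered by base composition. Window pairs 5 to 50 Mb apart on one chromosome were compared between the lowest and the highest 20% of GC content, below 38.3% and above 45.6%. Pairs of GC-rich windows had a D′ of 0.095 ± 0.016, pairs of GC-poor windows 0.035 ± 0.025 and mixed pairs 0.042 ± 0.017. GC-rich pairs exceeded mixed pairs by 0.053 ± 0.011 (95% interval 0.032 to 0.074), whereas the interval for GC-poor minus mixed pairs included 0 (−0.0069 ± 0.017, 95% interval −0.040 to 0.026). Like pairs exceeded unlike pairs by 0.023 ± 0.0082 (95% interval 0.0070 to 0.039). With phi the values were 0.126 for GC-rich, 0.112 for GC-poor and 0.103 for mixed pairs, and like minus unlike was 0.016 ± 0.0032. In the other libraries like minus unlike was 0.012 ± 0.0027 in D′ and 0.014 ± 0.0019 in phi. Detection also rises with GC content, and its part in the D′ values was not tested.

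Domain borders were called as local minima of an insulation score, the mean D′ over the square of pairs within 400 kb across a window, with a prominence of at least 0.5 SD. In the collection 2549 boundaries were found in 56051 scored windows (4.55%), with a median spacing of 800 kb. The weakest boundary kept had a prominence of 0.5002 SD and the strongest minimum not kept 0.4995 SD. The score at the boundaries lay 0.107 ± 0.0036 below its flanks at 400 kb, a value that the call itself fixes.

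The other libraries, which had no part in the call, showed a shallower dip at the same windows. There the score fell by 0.018 ± 0.00067 from the flanks (jackknife SE), and 1553 of the 2440 boundaries with a value, 63.6%, were lower than their flanks, against 49.3% of all windows. They had 2437 boundaries of their own, 4.35% of the windows. Within 40 kb, 523 boundaries were shared, which is 20.5% of the collection's and 21.5% of the others'. Of all scored windows 13.0% lie as near to a boundary of the others. By prominence, in 3 classes of near-equal size, 17.1% of the collection's boundaries were shared in the lowest class, 20.3% in the middle class and 24.2% in the highest. Over the 56051 windows the insulation scores of both sets had a Pearson r of 0.19, given as a description because neighbouring windows share their pairs. Most boundaries of the collection were therefore not found again in the rest of the series at this number of libraries.

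**Figure D5:**
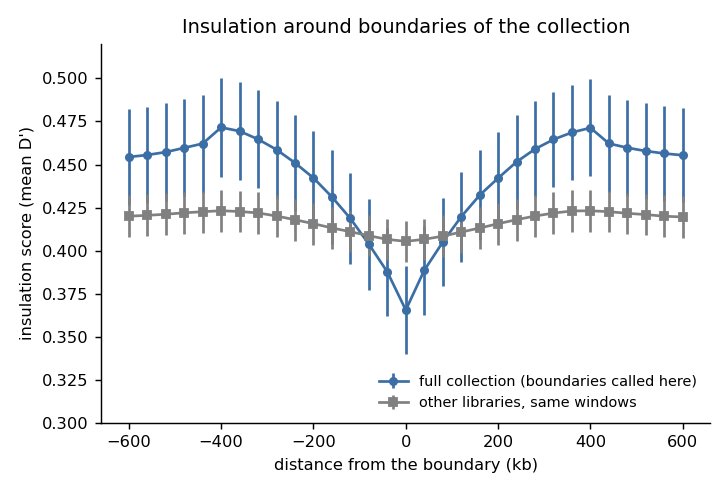
Mean insulation score (mean D′) by distance from the boundary (kb) at the 2339 boundaries of the collection with a full profile, in the collection and in the other libraries, with 95% jackknife intervals. The dip of the collection is fixed by the call, while the shallower dip of the other libraries, centred on the same windows, is not.

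A protein-coding start lay in 28.6% of the collection's boundary windows and in 35.9% of those shared with the other libraries, against 25.3% of all scored windows and 33.98% of the boundaries of the others. The core of the CTCF motif was searched as the letters CCA, any 2 bases, AGG, any base and GGC, on both strands of the mm9 sequence. It was present in 31.8% of the collection's boundaries, in 32.9% of the shared ones and in 35.5% of the others' boundaries, against 29.1% of all scored windows. No test of these shares was made. Chromosome 5 had 143 boundaries, of which 26, or 18.2%, were shared, and its insulation score had an r of 0.27 with that of the others over 3567 windows. The motif was present in 41.96% of its boundaries and in 33.2% of its scored windows, while gene starts were present in 23.8% and 25.7%.

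Of all boundaries of the collection, 20.5% had a partner within 40 kb in the other libraries. Of the 5 with the highest prominence over all autosomes, 1 boundary had such a partner. It was chr2:30240001-30280000, which holds the starts of Crat, a carnitine acetyltransferase gene, Dolpp1, a gene of dolichol recycling, and Ppp2r4, an activator of the phosphatase PP2A. Its insulation score was −0.268 ± 0.205 in the collection and 0.337 ± 0.042 in the others, with 5 of 54 libraries positive. The other 4 were chr15:41760001-41800000 (0.0050 ± 0.192), chr11:47960001-48000000 (0.034 ± 0.098), chr7:95680001-95720000 (0.057 ± 0.171) and chr8:125720001-125760000 (0.016 ± 0.118), the last one at the starts of Cdk10 and Chmp1a. These windows were positive in 5 to 12 libraries. The errors of their scores ran from 0.098 to 0.205 and were larger than the scores of the last 4.

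Of the 143 boundaries on chromosome 5, 18.2% had a partner in the other libraries, and of the 5 with the highest prominence 3 had one. The window chr5:83800001-83840000, within 40 kb of Tecrl, scored 0.170 ± 0.095 in the collection and 0.247 ± 0.045 in the others. The window chr5:61920001-61960000, with no protein-coding gene within 40 kb, scored 0.178 ± 0.105 and 0.318 ± 0.041. The window chr5:130760001-130800000, inside Tyw1, a gene of tRNA modification, scored 0.230 ± 0.101 and 0.333 ± 0.053. Without a partner were chr5:75640001-75680000, between Pdgfra and Kit, with 0.222 ± 0.097 against 0.465 ± 0.042 in the others, and chr5:70000001-70040000, near Gnpda2 and Guf1, with 0.210 ± 0.099 against 0.366 ± 0.042.

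The motif matches in these boundary windows show what the search found. They are printed 5′ to 3′ on their own strand from the mm9 assembly, with the match in capitals and 9 bases on either side in lower case. The first pair lies in the boundary at Crat and Dolpp1, the next at Cdk10, and the last pair in the boundaries of chromosome 5 inside Tyw1 and between Pdgfra and Kit.
chr2:30251182-30251211, minus strand: tcaggtaggCCAGGAGGTGGCcagacagat
chr2:30255170-30255199, minus strand: tgctcaggcCCAGCAGGAGGCaggctgtac
chr8:125749814-125749843, plus strand: gtcgggaagCCAGCAGGGGGCtggtggaat
chr5:130794215-130794244, minus strand: acagtttgaCCAGGAGGCGGCatgacttta
chr5:75644575-75644604, minus strand: ggctaaagtCCAGGAGGTGGCagaaatgag
The window of the boundary on chromosome 7 held 1 further match, and the remaining named boundary windows held none. A match is a description of these letters and says nothing of whether CTCF binds there, and a window without one is only a window without these letters.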

How the data were processed

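The authors mapped the reads of each library to the mouse build mm9 with Bowtie2 2.1, per the labels, and deposited for each library a 0 or 1 call (a unit other than counts or signal) in windows of 40 kb, for libraries that passed their quality control. The calls were used as deposited. All 249 columns were matched to samples by name, and 0 columns were left over. Chromosome lengths of the table matched the NCBIM37 assembly, which was used for GC content and motif matches, and GENCODE vM1 was used for genes. The rule for the members uses titles alone, but the collection, the gene lists and chromosome 5 were chosen for description with earlier results of these data known.

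D′ and phi were computed from windows positive in at least 5 of the 54 libraries, and between autosomes from every 25th window. Jackknife errors left out each library in turn, and 95% intervals are 1.96 SE. Permutation and sign-flip tests used 100000 resamples and Benjamini-Hochberg adjustment, with a threshold of 0.05. For genes the window of the annotated start was used. Genes were named from a list of chromosome 5 and one of pluripotency, and boundaries as the 5 of highest prominence overall and on chromosome 5. The scripts were tested on simulated data. Computations used Python 3.11.15, numpy 2.4.6, scipy 1.17.1 and numba 0.67.0. Alternatives were medians, coverage and neighbour limits, other window sets, GC weighting, a log2 ratio, phi, other detection minima, square sizes and prominences. The limits on neighbour share, the plate columns left out and the comparison with the other libraries above the value between autosomes, in D′ and in phi, were chosen after seeing the data.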

Additional observations from a re-analysis of the deposited data

How the results depend on the processing

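No paired analysis was possible because the labels give no replicate numbers and the collection is a single group. Leaving out each library in turn left 4 to 4 chromosomes besides 5 past the threshold. The depth of the libraries is unknown, single windows rest on few positive libraries, and whether the unequal number of libraries moves the level of D′ between the collection and the others was not tested. Where a value changed and no cause is named, the cause was not tested.

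With medians in place of means, the differences from the other libraries were −2.76 points for coverage (adjusted p = 0.103, permutation test), 1.037 for the neighbour share and 10.5 for hardly sampled autosomes (adjusted p = 0.0526, permutation test), and from the stained libraries −3.65, −3.92 and, for the number of runs, 292. Without libraries of under 5% coverage they were −3.02 and 0.148 from the others and −4.89 and −6.57 from the stained libraries, for coverage and neighbour share. Over windows positive at least once, 2 chromosomes besides 5 passed, chromosome 7 at −2.71 and Y at −2.86 falling short. Y was also short of the threshold, at −3.17, under GC weighting, where chromosome 11 was −0.63, and chromosome 11 was −0.056 without the scattered libraries. On the log2 scale 9 chromosomes passed, and all autosomes were shifted down: chromosomes 4, 5, 8, 9, 11, 12, 13, 16, 17, 18 and 19 changed sign, to −0.15, −0.026, −0.26, −0.10, −0.32, −0.28, −0.16, −0.28, −0.17, −0.23 and −0.23. Chromosome 14 against the stained libraries was 0.17. Corrected co-detection, nowhere past the threshold, turned sign to 0.20 at 1 Mb and 0.019 at 4 Mb against the others and −0.070 at 10 Mb against the stained libraries with autosomal coverage, and to 0.80 at 40 kb and 0.30 at 1 Mb against the others without low coverage.

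With phi, D′ means became 0.582 at 40 kb, 0.323 at 0.52 to 1 Mb, 0.124 at 10 to 25 Mb and 0.037 between autosomes, chromosome 5 above 50 Mb was 0.016, and the differences from the other libraries above the value between autosomes were 0.0023, 0.0080, 0.0052 and 0.0065 at 40 kb, 0.52 to 1, 2 to 4 and 10 to 25 Mb. With windows in at least 3 libraries the mean at 10 to 25 Mb was 0.062, and with at least 8 libraries means were 0.393, 0.215, 0.116 and −0.064 at 0.52 to 1, 2 to 4, 10 to 25 Mb and between autosomes, and 0.044 for chromosome 5 above 50 Mb. Without the scattered libraries they were 0.707 at 40 kb and 0.397 at 0.52 to 1 Mb. With the outer 10% of GC content, like minus unlike was 0.035. Squares of 200 kb gave 5047 boundaries, 1683 shared and a dip of −0.0075 in the others, squares of 800 kb gave 1243, 158 and −0.012, and a prominence of 1 SD gave 1480, 255 and −0.025. Within 2 windows, 811 were shared. The shared boundaries were 33.3%, 12.7%, 17.2% and 31.8% of the collection's in these 4 settings, and 26.2%, 6.68%, 8.49% and 21.7% of all scored windows lay as near to a boundary of the others.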
